A study of Arabidopsis thaliana with 12 samples.

Results

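The XTH and expansin genes of Arabidopsis thaliana belong to families with proteins that act directly on the load-bearing network of the growing cell wall. They were chosen by the text of the gene description in the authors' expression table, which had to name xyloglucan endotransglucosylase, xyloglucan endotransglycosylase, xyloglucan:xyloglucosyl transferase or expansin. This gave 50 of the 24730 genes in the table, of which 26 were XTH genes and 24 were expansin genes. The expansin genes comprised 17 alpha-expansins (EXPA), 3 beta-expansins (EXPB), 3 expansin-like A genes (EXLA) and 1 expansin-like B gene (EXLB).

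Gene expression was measured by RNA-seq of the input fraction of an m6A immunoprecipitation experiment, in wild type of the accession Col-0 and in a dcl1 mutant, with 3 biological replicates of each. The dcl1 allele is not named in the labels, which give untreated plants aged 20 days, a 16 h light period and leaf as the source, while the protocol speaks of seedlings. DCL1 is the Dicer-family nuclease on which most plant microRNAs depend, since it releases them from longer precursor RNAs. Levels are given in FPKM, a fragment number divided by the length of the gene and by the size of the library, and since such values carry no read number, the depth behind each value is unknown.

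Xyloglucan is the hemicellulose that coats and tethers cellulose microfibrils in the primary wall. XTH enzymes cut a xyloglucan chain and join the new end to another chain, or in a few members to water, which shortens the chain. Expansins have no known hydrolytic activity and let wall polymers slip past each other, most effectively when plasma membrane proton pumps have made the wall acidic. In leaves, both families are known from cell expansion, and single members are known from responses to touch, shade, hormones and low oxygen.

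The gene named by the mutant was examined first. DCL1 (AT1G01040, chromosome 1, 23146 to 31227 on TAIR10) was at 5.08, 4.53 and 6.0 FPKM in the wild-type libraries and at 0.604, 0.406 and 0.632 FPKM in the dcl1 libraries. All 3 dcl1 libraries lay far below all wild-type libraries. The means were 5.20 ± 0.739 and 0.547 ± 0.124 FPKM (SD, n = 3 each), a 9.51-fold lower level in dcl1, and the log2 change was -2.0 ± 0.12 (SE) with an adjusted p of 1.1e-04. This and all adjusted p-values below come from limma on log2(FPKM + 1) with Benjamini-Hochberg adjustment over the 17925 genes that averaged at least 1 FPKM, and a gene was called when the adjusted p was under 0.05.

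The 2 families did not move as blocks: in each, as many members rose as fell in dcl1. Of the 34 members with enough expression to be tested, 14 were called, 7 higher and 7 lower, which is 41.2% of those tested beside 30.6% of all tested genes. Rises made up 17.8% and falls 12.8% of all tested genes. With a change of at least 2-fold on the log2(FPKM + 1) scale there were 4 rises and 4 falls, while 5.4% of all tested genes passed that rule, 4.18% as rises and 1.22% as falls. Without wild-type replicate 1, 9 members were called, with 4 falls. Without dcl1 replicate 3 there were also 4 falls, and without wild-type replicate 2 there were 4 rises. The median log2 change over the tested members was 0.01, and over all tested genes it was 0.03. When the libraries were quantile normalized, the called members split into 5 rises and 8 falls, and the share of rises among all called genes went from 58.2% to 40.2%. Because whole leaves or seedlings were ground, fewer cells of a type and less RNA per cell cannot be told apart in any of these values.

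**Figure D1:**
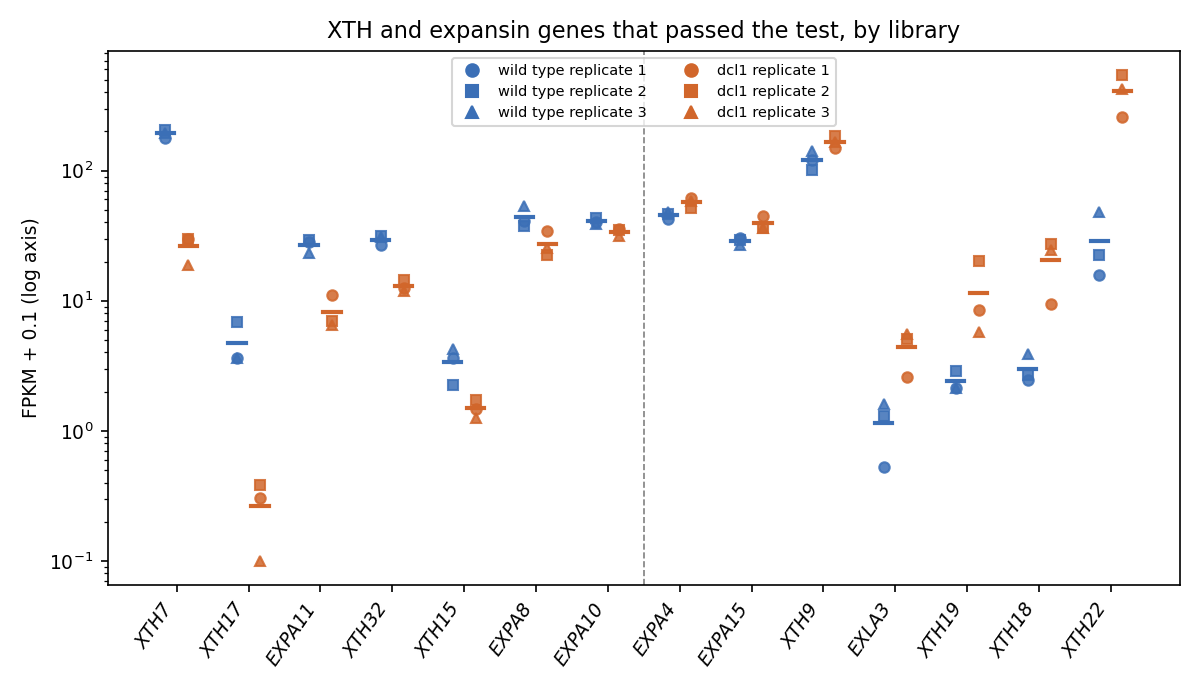
FPKM plus 0.1 on a log axis of the 14 XTH and expansin genes that passed the test, with wild-type libraries in blue, dcl1 libraries in orange, 1 marker shape per replicate and bars at the group means. Genes left of the dashed line were lower in dcl1 and genes right of it were higher, and the 6 libraries separate by genotype for each gene, from XTH7 at 178 to 205 against 18.7 to 29.9 FPKM to XTH22 at 15.6 to 47.8 against 258 to 543 FPKM.

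The 2 genotypes did not overlap in 18 of the 34 tested members, beside 48.4% of all tested genes. These were the 14 called members and EXPA1, EXPA9, EXPA20 and EXLB1, which missed the threshold. By family, 8 of 17 tested XTH genes were called (47.1%, beside 30.6% of all tested genes), 4 in each direction, with a median log2 change of 0.06. Of 17 tested expansin genes, 6 were called, 3 in each direction, with a median log2 change of -0.02. That share of 35.3% was close to the 30.6% of all tested genes. Only 3 expansin genes were called without wild-type replicate 1 or without wild-type replicate 2.

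XTH genes with lower RNA in dcl1 were XTH7, XTH17, XTH32 and XTH15. XTH7 (AT4G37800, chromosome 4, 17775474 to 17777397) was at 178, 205 and 196 FPKM in wild type and at 29.5, 29.9 and 18.7 FPKM in dcl1. By mean FPKM it ranked first of the 50 genes in wild type, just ahead of EXPA1 (188 FPKM) and XTH4 (181 FPKM), and 14th in dcl1. In wild-type replicate 3, EXPA1 (235 FPKM) and XTH4 (206 FPKM) were higher than XTH7. The XTH7 mean was 7.40-fold lower in dcl1, 26.1 ± 6.34 against 193 ± 13.9 FPKM, and the log2 change was -2.87 ± 0.17 (SE, 95% interval -3.27 to -2.47, adjusted p 9.4e-05).

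XTH17 (AT1G65310, chromosome 1, 24257216 to 24258473), a gene of the clade that also holds XTH18, XTH19 and XTH20, was at 3.51, 6.81 and 3.50 FPKM in wild type. In dcl1 it was at 0.203 and 0.283 FPKM in replicates 1 and 2 and was listed at 0 in replicate 3. The gene was thus close to the lower end of the scale in every dcl1 library. Its log2 change of -2.23 ± 0.23 (adjusted p 7.4e-04) depended strongly on the pseudocount, reaching -4.31 with 0.1 FPKM and -0.88 with 5 FPKM.

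XTH32 (AT2G36870, chromosome 2, 15472645 to 15474681) belongs to the small group whose close relative XTH31 hydrolyses xyloglucan rather than rejoining it, and the authors' table annotates it to breakdown of wall macromolecules. It was at 26.7, 31.1 and 30.6 FPKM in wild type and at 12.4, 14.3 and 11.8 FPKM in dcl1. Libraries within a genotype differed little, and the mean was 2.29-fold lower in dcl1 (log2 -1.14 ± 0.10, adjusted p 3.5e-04). XTH31 itself (AT3G44990, chromosome 3, 16446975 to 16448764) carries another description in the table and is no member. It was at 73.6, 78.2 and 59.5 FPKM in wild type and at 13.0, 10.7 and 9.26 FPKM in dcl1, and fell as well (log2 -2.58 ± 0.14, adjusted p 6.6e-05). The other 3 genes of both families that carry another description were not called, with log2 changes of 0.51 for XTH27 (adjusted p 0.098), 0.45 for EXLB3 (adjusted p 0.35) and -0.09 for EXPA3 (adjusted p 0.47).

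XTH15 (AT4G14130), known as the shade-responsive gene XTR7 and annotated to far-red light in the authors' table, was at 3.53, 2.14 and 4.18 FPKM in wild type and at 1.38, 1.63 and 1.15 FPKM in dcl1. The lowest wild-type library lay only slightly above the highest dcl1 library. The log2 change was -0.82 ± 0.19 (adjusted p 0.017).

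XTH genes with higher RNA in dcl1 were XTH22, XTH18, XTH19 and XTH9. XTH22 (AT5G57560, chromosome 5, 23307130 to 23308282), first described as the touch-inducible gene TCH4, was at 15.6, 22.5 and 47.8 FPKM in wild type and at 258, 543 and 424 FPKM in dcl1. Even the lowest dcl1 library was several times above the highest wild-type library, which was replicate 3. The mean was 14.3-fold higher in dcl1, 409 ± 143 against 28.6 ± 17.0 FPKM, and the log2 change was 3.87 ± 0.41 (95% interval 2.91 to 4.84, adjusted p 8.6e-04). By mean FPKM, XTH22 ranked 14th of the 50 genes in wild type and first in dcl1, the exchange of places with XTH7.

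XTH18 (AT4G30280, chromosome 4, 14825808 to 14827047) was at 2.34, 2.60 and 3.79 FPKM in wild type and at 9.34, 27.4 and 24.3 FPKM in dcl1. Replicate 1 was well below the other two dcl1 libraries, and all 3 stood clear of wild type. The log2 change was 2.34 ± 0.36 (95% interval 1.49 to 3.18, adjusted p 0.0038). XTH19 (AT4G30290, chromosome 4, 14828712 to 14830016), annotated to cellular response to auxin, was at 2.05, 2.80 and 2.05 FPKM in wild type and at 8.43, 19.9 and 5.66 FPKM in dcl1. Here replicate 3 was the lowest dcl1 library and replicate 2 the highest. The log2 change was 1.74 ± 0.37 (95% interval 0.87 to 2.61, adjusted p 0.013).

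XTH17, XTH18, XTH19 and XTH20 are close paralogs that are known mainly from roots, and how reads shared between them were counted is not stated in the sources used here, so the split between them is uncertain. Within that clade XTH17 fell and XTH18 and XTH19 rose. XTH20 stayed under the expression minimum, at 0, 0.408 and 0.0869 FPKM in wild type and 1.08, 0.111 and 0.281 FPKM in dcl1. XTH9 (AT4G03210), which is known from shoot growth and wood formation, showed a smaller rise, from 121, 101 and 141 FPKM to 150, 183 and 164 FPKM. Its genotypes were apart by a narrow margin, between wild-type replicate 3 and dcl1 replicate 1, and the log2 change was 0.47 ± 0.13 (adjusted p 0.032).

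**Figure D2:**
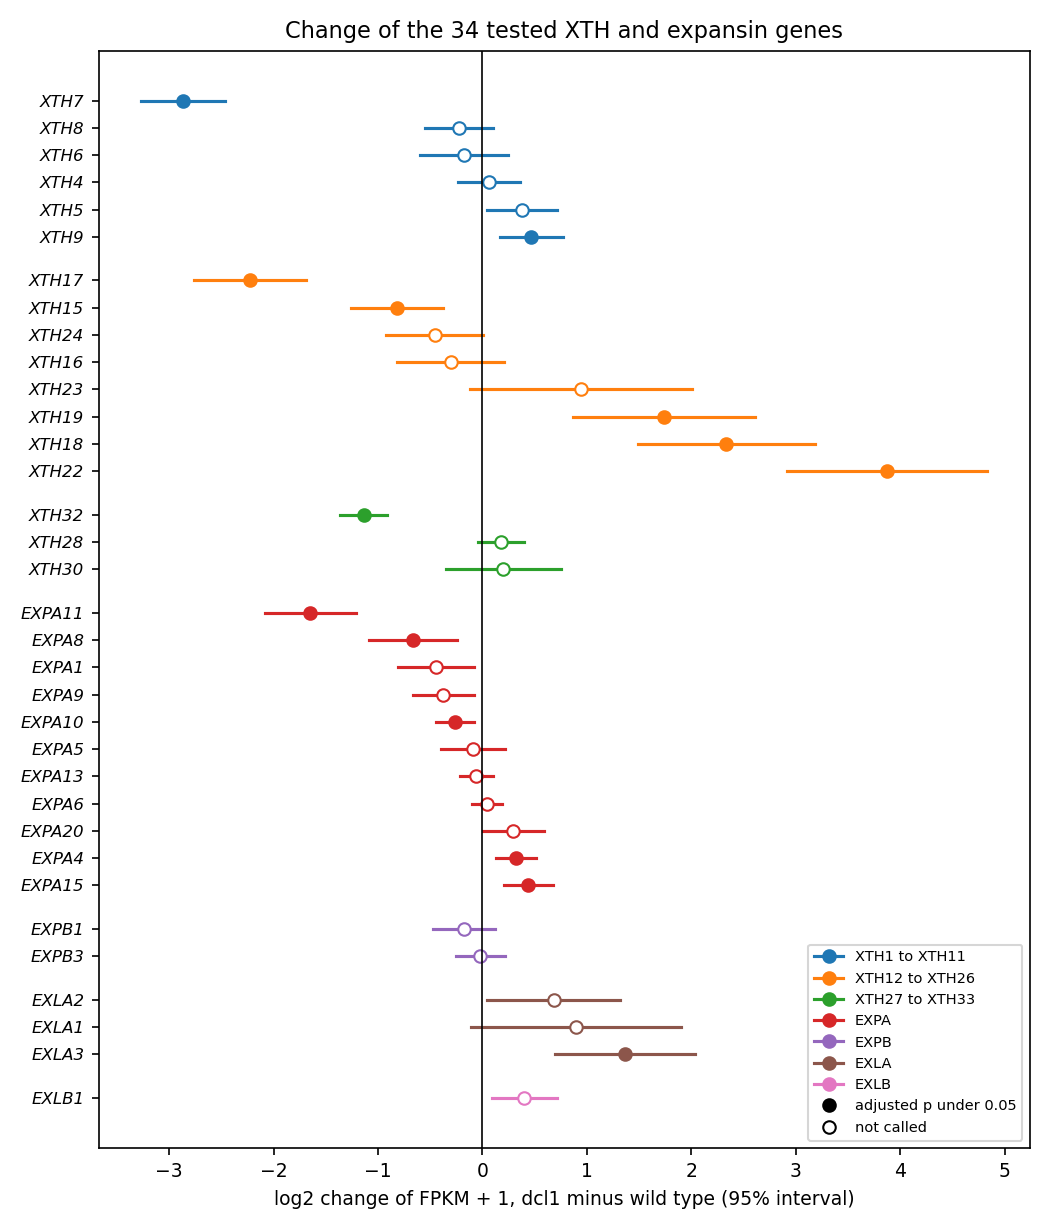
Log2 change of FPKM + 1, dcl1 minus wild type, with its 95% interval, of the 34 tested XTH and expansin genes; filled points passed the test and open points did not. Changes ran from -2.87 for XTH7 to 3.87 for XTH22, and the highly expressed XTH4 and EXPA6 lie at 0.06 and 0.04.

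The remaining tested XTH genes were not called. XTH4 (AT2G06850, chromosome 2, 2763526 to 2765720), which like XTH9 is known from wood formation, was the most abundant of the XTH1 to XTH11 group over both genotypes. It was at 155, 181 and 206 FPKM in wild type and at 191, 212 and 164 FPKM in dcl1, so that the genotypes overlapped throughout. Its log2 change was 0.06 with a 95% interval of -0.23 to 0.36 (adjusted p 0.72).

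XTH28 (AT1G14720), which had the highest mean over the 6 libraries among the XTH27 to XTH33 genes chosen by the description text, was at 21.2, 21.9 and 25.7 FPKM in wild type and at 24.7, 25.0 and 28.2 FPKM in dcl1. Only wild-type replicate 3 reached into the dcl1 range, and the log2 change of 0.17 (95% interval -0.05 to 0.40, adjusted p 0.20) missed the threshold. XTH23 (AT4G25810) was at 4.36, 5.26 and 9.30 FPKM in wild type and at 5.58, 22.5 and 14.8 FPKM in dcl1. The genotypes overlapped because dcl1 replicate 1 lay among the wild-type libraries, and the log2 change was 0.94 (95% interval -0.12 to 2.00, adjusted p 0.15). Without that library the change was 1.46 and passed the test, with an adjusted p of 0.0165. The log2 changes of XTH24, XTH16, XTH8, XTH6, XTH30 and XTH5 lay between -0.46 and 0.38.

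Summed over its 26 genes, the XTH family amounted to 682, 758 and 881 FPKM in wild type and to 834, 1259 and 992 FPKM in dcl1. The sums overlapped between genotypes, with a ratio of means of 1.33. The make-up of the sum differed more than its size. XTH22 supplied 2.28%, 2.97% and 5.43% of it in wild type and 31.0%, 43.1% and 42.8% in dcl1. XTH7 supplied 26.1%, 27.0% and 22.3% in wild type and 3.54%, 2.38% and 1.89% in dcl1. No library of one genotype came near the other in either share.

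Without XTH22 the remaining XTH genes summed to 745 ± 84.1 FPKM in wild type and 620 ± 83.2 FPKM in dcl1. Without both XTH22 and XTH7 the sums were 552 ± 76.8 and 594 ± 79.8 FPKM, a difference within 1 SD. Within single libraries, XTH7 exceeded XTH22 by 11.4, 9.10 and 4.10 times in wild type. In dcl1, XTH22 exceeded XTH7 by 8.76, 18.1 and 22.7 times. These sums and ratios describe the libraries and carry no test.

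**Figure D3:**
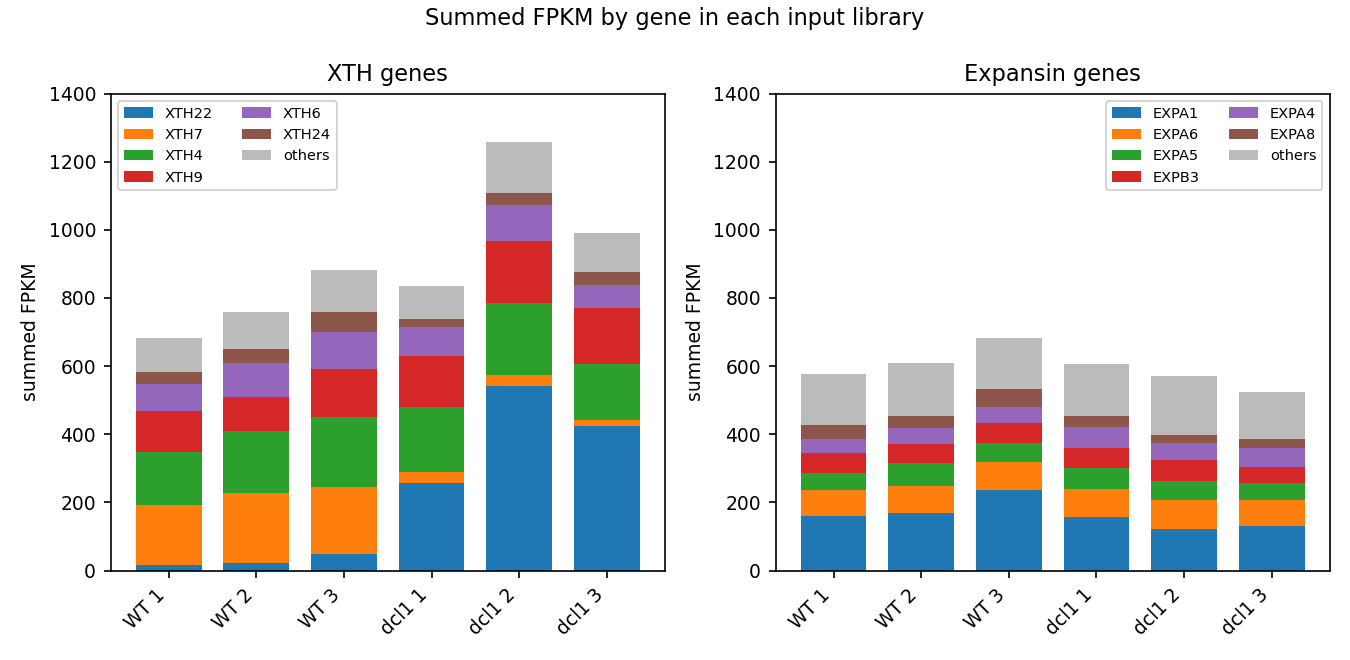
Summed FPKM of the XTH genes (left) and the expansin genes (right) in each input library, stacked by gene with the lesser genes pooled in grey. XTH22 grows from 2.28% to 5.43% of the XTH sum in wild type to between 31.0% and 43.1% in dcl1, XTH7 shrinks from at least 22.3% to at most 3.54%, and the expansin sums stay between 523 and 682 FPKM.

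Among the expansins the clearest fall was that of EXPA11 (AT1G20190, chromosome 1, 6998489 to 6999817), an alpha-expansin. It was at 28.1, 29.3 and 23.2 FPKM in wild type and at 11, 6.84 and 6.40 FPKM in dcl1. The highest dcl1 library remained well under the lowest wild-type library. Its mean was 3.33-fold lower in dcl1, 8.07 ± 2.51 against 26.9 ± 3.25 FPKM, and the log2 change was -1.65 ± 0.19 (95% interval -2.08 to -1.21, adjusted p 0.0011).

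The opposite case was EXLA3 (AT3G45960, chromosome 3, 16892756 to 16893900), an expansin-like gene whose product is related to expansins in sequence and has no established loosening activity. It was at 0.424, 1.20 and 1.5 FPKM in wild type and at 2.47, 4.96 and 5.46 FPKM in dcl1. Replicate 1 was the lowest library of each genotype. The log2 change was 1.36 ± 0.29 (95% interval 0.69 to 2.03, adjusted p 0.012).

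The other 4 called expansins were alpha-expansins that changed less than 2-fold. EXPA8 (AT2G40610) was at 40.8, 37.5 and 53.6 FPKM in wild type and at 34.3, 22.3 and 25.5 FPKM in dcl1 (log2 -0.67 ± 0.18, adjusted p 0.029). EXPA10 (AT1G26770), known from leaf and petiole growth, was at 40.4, 43.3 and 38.7 FPKM in wild type and at 35.6, 35.0 and 31.2 FPKM in dcl1 (log2 -0.26 ± 0.08, adjusted p 0.041). Both were thus lower in every dcl1 library than in any wild-type library, by a narrow margin.

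In the other direction, EXPA4 (AT2G39700) was at 42.7, 46.1 and 47.7 FPKM in wild type and at 61.2, 51.8 and 58.4 FPKM in dcl1 (log2 0.32 ± 0.08, adjusted p 0.025). EXPA15 (AT2G03090) was at 30.1, 29.0 and 26.5 FPKM in wild type and at 45, 36.4 and 36.3 FPKM in dcl1 (log2 0.44 ± 0.10, adjusted p 0.017). Both were higher in all dcl1 libraries. The calls of EXPA4, EXPA8, EXPA10 and EXPA15, and those of XTH9 and XTH15, were lost in at least 1 alternative analysis. The calls of the 8 genes that passed at 2-fold were kept in each alternative that gave them a value.

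The most abundant expansin was EXPA1 (AT1G69530, chromosome 1, 26141836 to 26143500), which is known from guard cells, the paired cells that open and close stomata, and is annotated to stomatal movement in the authors' table. It was at 161, 168 and 235 FPKM in wild type and at 157, 123 and 129 FPKM in dcl1. Wild-type replicate 3 stood high, and dcl1 replicate 1 lay just under the other two wild-type libraries. The log2 change of -0.45 (95% interval -0.81 to -0.08) missed the threshold with an adjusted p of 0.065, and passed it with median-ratio scaling of the libraries, at 0.0382.

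The 3 tested guard cell marker genes had negative log2 changes, and 1 of them was called. That share of 33.3% was close to the 30.6% of all tested genes. The called marker was the potassium channel gene KAT1, at 14.8, 13.1 and 4.85 FPKM in wild type and 2.41, 2.70 and 1.95 FPKM in dcl1 (log2 -1.71, adjusted p 0.011). GC1 and MYB60 had log2 changes of -0.21 and -0.41 and were not called. The summed level of the 4 guard cell markers ranged from 17.3 to 24.4 FPKM in wild type and from 9.74 to 12.4 FPKM in dcl1, and without KAT1 from 9.54 to 12.5 FPKM in wild type and from 7.78 to 10.02 FPKM in dcl1, which overlap. The part of these markers in the EXPA1 values was not tested.

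Of the alpha-expansins that were not called, EXPA6 differed little between the libraries. Its means were 79.2 ± 3.37 FPKM in wild type and 81.4 ± 2.25 FPKM in dcl1, with a log2 change of 0.04 (95% interval -0.10 to 0.18, adjusted p 0.65). EXPA5 and EXPA13 had log2 changes of -0.09 and -0.06. EXPA9 was at 4.39, 4.29 and 5.73 FPKM in wild type and at 3.95, 3.12 and 3.30 FPKM in dcl1 (log2 -0.38, adjusted p 0.056), and passed the test with median-ratio scaling (0.0290) and after quantile normalization (0.0129). EXPA20 was at 3.49, 2.96 and 3.15 FPKM in wild type and at 3.78, 5.12 and 3.65 FPKM in dcl1 (log2 0.29, adjusted p 0.11).

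Beta-expansins, which in grasses include pollen allergens, did not pass the test. EXPB3 (AT4G28250) was at 56.3, 55.6 and 56.5 FPKM in wild type and at 59.2, 60.6 and 47.1 FPKM in dcl1, a log2 change of -0.02 with a 95% interval of -0.25 to 0.21 (adjusted p 0.89). Its wild-type libraries were nearly equal and fell inside the range of the dcl1 libraries. EXPB1 averaged 13.2 ± 1.58 FPKM in wild type and 11.6 ± 1.75 FPKM in dcl1 (log2 -0.18, adjusted p 0.32).

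All 3 expansin-like A genes had positive log2 changes, of which EXLA3 alone was called. EXLA2, known for its effect on susceptibility to the fungus Botrytis, was at 8.29, 7.87 and 10.4 FPKM in wild type and at 12.8, 24.0 and 10.2 FPKM in dcl1 (log2 0.68, 95% interval 0.05 to 1.32, adjusted p 0.096). EXLA1 (AT3G45970) was at 6.80, 7.29 and 13.0 FPKM in wild type and at 8.45, 31.4 and 18 FPKM in dcl1 (log2 0.89, 95% interval -0.11 to 1.90, adjusted p 0.15). In both genes replicate 2 was by far the highest dcl1 library and at least 1 dcl1 library lay within the wild-type range. EXLA1 passed the test without dcl1 replicate 1 (adjusted p 0.0250), and EXLA2 passed it without dcl1 replicate 3 (adjusted p 0.0444). EXLB1 (AT4G17030), the single expansin-like B member, was at 1.23, 0.911 and 1.18 FPKM in wild type and at 2.03, 1.96 and 1.38 FPKM in dcl1 (log2 0.40, 95% interval 0.09 to 0.71, adjusted p 0.057). It was higher in all dcl1 libraries, and passed the test without the variance trend (0.0405) and without dcl1 replicate 3 (0.0345).

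The 24 expansin genes summed to 577, 609 and 682 FPKM in wild type and to 607, 572 and 523 FPKM in dcl1. These sums overlapped, with a ratio of means of 0.911. The alpha-expansins made up most of the sum, with means of 533 and 458 FPKM, and the beta-expansins contributed 69.3 and 68.1 FPKM. The expansin-like A genes summed to 15.5, 16.4 and 24.9 FPKM in wild type and to 23.7, 60.3 and 33.7 FPKM in dcl1, overlapping between wild-type replicate 3 and dcl1 replicate 1.

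Under the expression minimum were 16 members, which were not tested. In 8 of them no library reached 0.3 FPKM, namely XTH11, XTH12, XTH13, XTH14, EXPA2, EXPA12, EXPA16 and the root hair expansin EXPA18. The other 8 reached 0.3 FPKM in a library. EXPB2 (AT1G65680) was at 0.0576 and 0.0463 FPKM in 2 wild-type libraries, was listed at 0 in the third and was at 1.77, 0.557 and 0.448 FPKM in dcl1. EXPA14 (AT5G56320) was at 1.21, 0.838 and 0.705 FPKM in wild type and at 0.594, 0.407 and 0.148 FPKM in dcl1. The genotypes did not overlap in either gene, at levels too low for the test applied here. Nor did they overlap in EXPA2, at 0.0479, 0.0435 and 0.0396 FPKM in wild type and listed at 0 in dcl1. Among all tested genes, 48.4% did not overlap.

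EXPA17, known from lateral root emergence, was at 0.688, 1.14 and 1.66 FPKM in wild type and at 0.802, 1.07 and 0.450 FPKM in dcl1. XTH33, whose product is predicted to be anchored in the plasma membrane, was between 0.612 and 0.889 FPKM in all libraries. XTH10, XTH25 and XTH29 overlapped between genotypes, as did XTH20 and EXPA17.

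Several members lie side by side in the genome. With a gap of at most 10 kb between neighbours there were 4 such clusters. On chromosome 5, XTH12, XTH13, XTH25 and XTH22 follow each other within gaps of 1390, 838 and 708 bases. Of these only XTH22 was expressed enough to be tested, while XTH25 was at 0.366, 0.710 and 1.23 FPKM in wild type and at 0.602, 1.22 and 0.987 FPKM in dcl1. On chromosome 4, XTH24, XTH18 and XTH19 lie on the same strand with gaps of 5215 and 1664 bases. XTH18 and XTH19 rose, and XTH24, also called MERI5, was not called, at 37.2, 41.5 and 56.5 FPKM in wild type and at 24.4, 36.0 and 37.4 FPKM in dcl1 (log2 -0.46, adjusted p 0.12).

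EXLA3 and EXLA1 are 2265 bases apart on chromosome 3, and both had positive log2 changes. XTH23 and XTH14 are 412 bases apart on chromosome 4, and XTH14 was listed at 0 in all wild-type libraries.

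**Figure D4:**
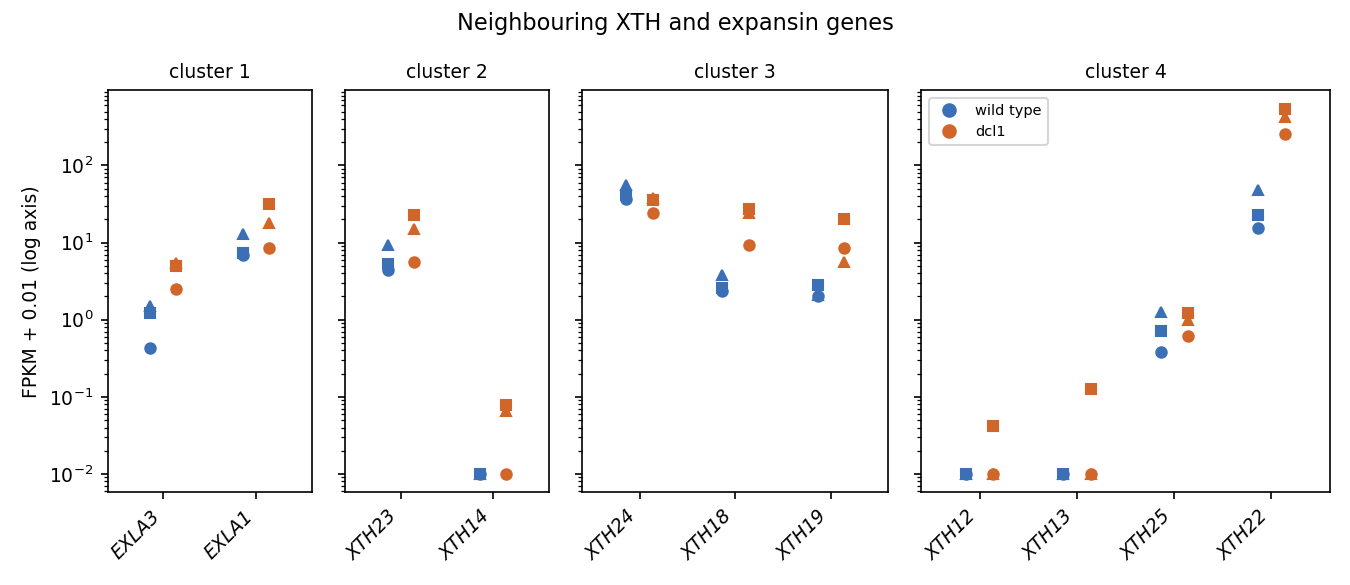
FPKM plus 0.01 on a log axis of the members that lie within 10 kb of each other, in chromosome order within 4 clusters, with 1 marker shape per replicate (circle 1, square 2, triangle 3). XTH22 stands at 258 to 543 FPKM in dcl1 next to XTH25 at 0.602 to 1.22 FPKM, and XTH18 and XTH19 rise beside XTH24, which does not pass the test.

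Wild-type replicate 3 stood apart from its group. On the first principal component of all tested genes, with 78.2% of the variance, it lay at -26.1 against -41.1 and -42.8 for the other wild-type libraries, and so closer to dcl1. It was the highest wild-type library in 22 of the 34 tested members, beside 54.5% of all tested genes, and in 5 of the 7 members that rose. Without it, 13 members were called, 7 higher and 6 lower, and 8 of them passed at 2-fold. The log2 change of XTH22 was then 4.31 and that of XTH7 was -2.86.

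In the authors' deposited table of the same comparison, 12 of the 50 members are marked as significant, 6 higher and 6 lower in dcl1, or 24% of them beside 6.75% of all genes in that table. They include all 8 members that passed here at 2-fold. The others marked in the authors' deposited table are EXLA1 (log2 1.09, q 0.010), XTH23 (log2 1.18, q 0.0091), XTH15 (log2 -1.24, q 2.0e-04) and EXPA14 (log2 -1.26, q 0.012). The mark does not rest on q alone. Members with q under 0.05 and smaller changes are not marked, among them EXPA8 (log2 -0.68, q 1.5e-04) and EXLA2 (log2 0.83, q 0.0063). EXPA1 (q 0.0072), EXPA15 (q 0.0077) and XTH9 (q 0.0089) are likewise not marked. The authors' log2 values are of the FPKM ratio without a pseudocount, unlike the log2 changes above.

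The methylation side of the experiment held little on these genes. N6-methyladenosine (m6A) is the most common internal mark of messenger RNA and in plants lies mostly near the stop codon and in the 3' UTR. The authors' deposited table of differential peaks between dcl1 and wild type lists 3117 peaks, not all with an FDR of at most 0.05. Of these peaks, 2 were assigned to a member. Neither overlapped the member, so 0 of the 34 tested members were overlapped by a differential peak, beside 18.5% of all tested genes. In the whole table, 1317 peaks were assigned to a gene that they do not overlap.

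The peak assigned to XTH6 (chromosome 5, 26297832 to 26298042, 211 bases) lies in the upstream gene NFS1 (AT5G65720) and ends 989 bases before XTH6. Its log2 change in the authors' deposited table is 0.321, with p 6.6e-04 and an FDR of 0.00468. XTH6 RNA was at 95.9 ± 17.0 FPKM in wild type and 85.2 ± 18.4 FPKM in dcl1 (log2 -0.17, adjusted p 0.49). The peak assigned to EXPA9 (chromosome 5, 458857 to 459527, 671 bases) lies in the ribonuclease gene EMB2730 (AT5G02250), 3630 bases before EXPA9. The authors' deposited table gives it a log2 change of -0.152 with p 0.0288 and an FDR of 0.0891. Both peaks are annotated as 3' UTR there, and peaks that the authors did not list as differential are not part of the table.

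Other wall genes gave a setting for these values. Of 139 genes listed for cellulose of the primary wall, the secondary wall and xylem, xyloglucan, pectin, endoglucanases and wall acidification, 76 were tested and 41 were called, 16 higher and 25 lower, or 53.9% of those tested beside the 30.6% of all tested genes. Their median log2 change was -0.11. Without wild-type replicate 1, wild-type replicate 2 or dcl1 replicate 3, the calls numbered 23, 21 and 26.

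Genes of primary wall cellulose synthesis were called in 1 direction, with 0 rises and 7 falls among 11 tested. That is 63.6% of those tested, beside 30.6% of all tested genes, with a median log2 change of -0.28. The largest fall was that of CC2, a companion of the cellulose synthase complex, from 5.77 ± 0.587 to 3.08 ± 0.298 FPKM (log2 -0.73, adjusted p 0.0024). The catalytic subunit genes CESA1, CESA3, CESA5 and CESA6 fell as well, CESA6 from 40.2 to 30.9 FPKM (log2 -0.37, adjusted p 0.0087), as did COB and CSI1. Of the secondary wall genes, the 2 that were tested, FLA11 and FLA12, both fell, FLA12 by a log2 change of -0.76 (adjusted p 0.0018).

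Genes that make and trim xyloglucan, the substrate of the XTH enzymes, went both ways, with 4 rises and 4 falls among 15 tested. That is 53.3% of those tested, beside 30.6% of all tested genes, with a median log2 change of 0.09. The xylosyltransferase gene XXT1 was at 6.46, 7.97 and 10.3 FPKM in wild type and at 21.9, 38.6 and 33.2 FPKM in dcl1. Every dcl1 library exceeded every wild-type library, with a log2 change of 1.78 (adjusted p 0.0016). The backbone synthase gene CSLC4 rose by 0.53 on the log2 scale (adjusted p 0.021). The galactosyltransferase gene XLT2 had the largest fall, from 27.5 to 15.8 FPKM (log2 -0.79, adjusted p 0.015), and AXY4, which acetylates xyloglucan, fell by 0.66 (adjusted p 0.0081).

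Of 6 tested plasma membrane proton pump genes, 0 rose and 2 fell, with a median log2 change of -0.08. That share of 33.3% was close to the 30.6% of all tested genes. AHA11 fell from 30.7 to 19.2 FPKM (log2 -0.65, adjusted p 0.0023) and AHA2 from 50.2 to 37.3 FPKM (log2 -0.42, adjusted p 0.0078).

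Of 30 tested genes whose description contains pectin methylesterase or pectinesterase, 6 rose and 8 fell, with a median log2 change of -0.22. That is 46.7% called, beside 30.6% of all tested genes. In 24 of the 30 genes the words stand in the name of an inhibitor or inhibitor superfamily, and these account for 5 rises and 7 falls. The other 6 gave 1 rise and 1 fall. The superfamily description does not tell enzymes from inhibitors, so the count and the median over the 30 genes may mix both. The largest rise was that of ATPMEPCRB (AT4G02330), from 5.60 to 20.5 FPKM (log2 1.69, adjusted p 0.0030), and the largest fall that of PME61 (AT3G59010), from 11.4 to 4.84 FPKM (log2 -1.10, adjusted p 0.0024).

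All 4 tested genes described with polygalacturonase rose (100% called, beside 30.6% of all tested genes), with a median log2 change of 0.68. The pair with the larger changes, PGIP1 (log2 1.01, adjusted p 0.023) and PGIP2 (log2 0.94), encodes inhibitors of fungal polygalacturonases and not wall-loosening enzymes. PGIP2 overlapped between genotypes, with wild-type replicate 3 and dcl1 replicate 1 both at 27.5 FPKM. For the remaining pair, PG1 and PG2, the description alone does not show whether the products are wall-loosening enzymes. Of 3 genes whose description names pectate lyase, the 1 tested, AT1G67750, rose by 0.65 on the log2 scale (adjusted p 0.0081). Genes of these pectin families under another description were not taken. Of 8 tested glycosyl hydrolase 9 endoglucanase genes, 1 rose and 2 fell, or 37.5% beside 30.6% of all tested genes. The median log2 change of these 8 genes was -0.13, and the largest called changes were those of GH9B18 (log2 0.60, adjusted p 0.0076) and GH9B13 (log2 -0.48, adjusted p 0.033).

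**Figure D5:**
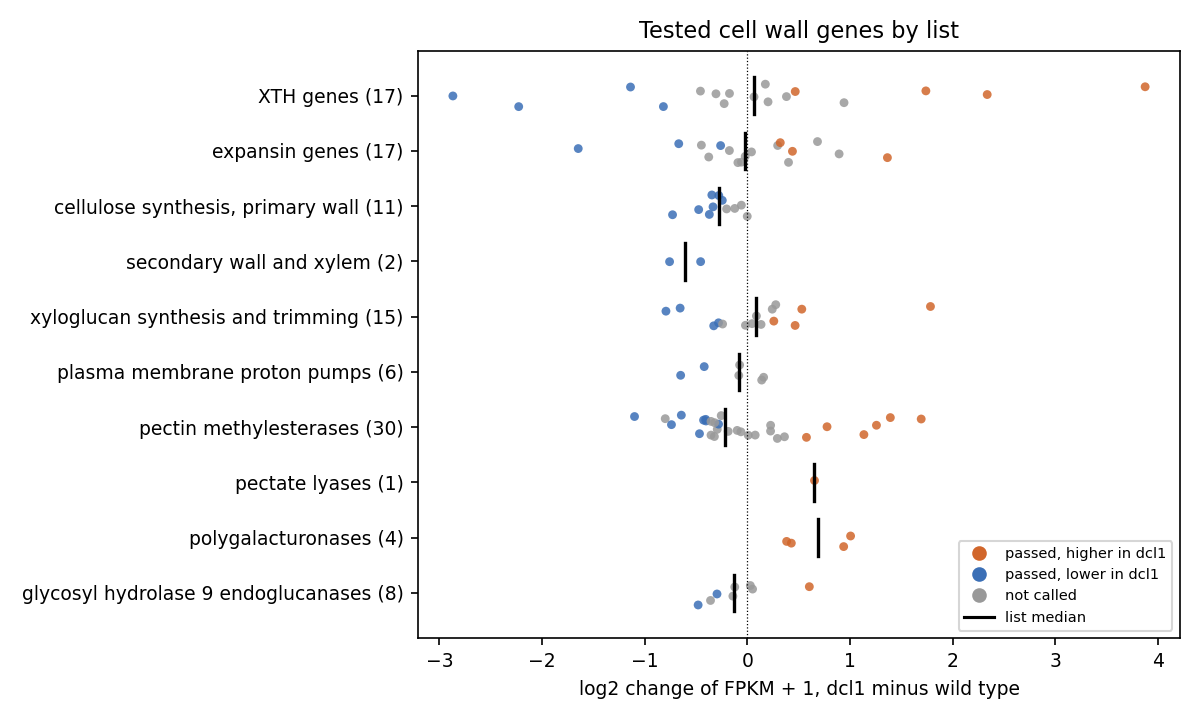
Log2 change of FPKM + 1, dcl1 minus wild type, of each tested gene in the XTH, expansin and other wall lists, with the number of tested genes in brackets and a bar at each list's median. The XTH genes span -2.87 to 3.87 around a median of 0.06, and the primary wall cellulose genes lie at or under 0 with a median of -0.28.

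The labelled tissue was checked by marker genes. Mesophyll genes for light capture and carbon fixation summed to between 36817 and 41794 FPKM in wild type and between 38289 and 41911 FPKM in dcl1, with 2 rises and 2 falls among 5 tested. Root hair markers were near 0, with sums of at most 0.538 FPKM, and 0 of 5 could be tested. Of 6 root markers 2 were tested and 0 called, with sums of 99 to 115 FPKM in wild type and 90.7 to 101 FPKM in dcl1, most of it from PYK10. SCR was between 8.56 and 11.7 FPKM in all libraries, and IRT1, CASP1 and PLT2 were at most at 0.422 FPKM. The root phosphate transporter gene PHT1;1, under the expression minimum, was at 0.332, 0.269 and 0.531 FPKM in wild type and at 2.03, 0.815 and 1.85 FPKM in dcl1, without overlap. The pollen marker VGD1 had no value, so pollen was not covered. Of 3 tested flower markers 2 rose, AP3 (log2 0.71, adjusted p 0.019) and PI (log2 0.53, adjusted p 0.0068). That is 66.7%, beside 30.6% of all tested genes called. The summed level of the flower markers went from 9.11 to 9.57 FPKM in wild type to 12.2 to 16.5 FPKM in dcl1. The part of these markers in the XTH and expansin values was not tested.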

How the data were processed

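RNA-seq (input) and m6A immunoprecipitate libraries were made from wild type and dcl1, 3 of each, 12 in all. The submitters' processing notes name the build TAIR10 and the tools HISAT2, fastp, edgeR, StringTie, ChIPseeker and HOMER, without versions or roles. Per the file headers, the authors' expression table gives FPKM for 24730 genes and the 6 input libraries. Beside each gene the authors deposited their own comparison, a dcl1 to wild type fold ratio with the log2 of it, and p-values and q-values. Their deposited peak table holds a log2 change, a p-value and the log10 of the FDR, used here as deposited, and how that log2 change was scaled is not stated. Low FPKM showed no common step between libraries, so the number of reads could not be recovered.

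From these, log2(FPKM + 1) of genes averaging at least 1 FPKM over the 6 input libraries was compared two-sided in R 4.3.3 by limma 3.58.1, using lmFit and a trended eBayes, with Benjamini-Hochberg adjustment and a threshold of 0.05. Fold changes of weakly expressed genes are understated by the added pseudocount. Errors are SD over replicates, or SE for log2 changes. The test was tried on simulated data. Same-numbered replicates of the genotypes correlated in their deviations at 0.085, 0.0608 and 0.150, so they were treated as unpaired. That the replicates were biological is stated in the series design, and no batch is labelled.

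Members and lists were chosen with earlier results of these data known. Genes named were DCL1, members called at 2-fold, the most abundant tested member of each class, members with a peak, and the largest called rise and fall of each other wall list, with the remaining members more briefly. XTH31, the guard cell genes and further genes of the wall lists were added after their values were seen. Symbols came from a RefSeq table of TAIR10.1, used for names alone, which matched 50 of 50 members and 23755 of all 24730 identifiers. By those names there are 70 genes of both families. Of these, 4 carry another description in the authors' expression table (XTH27, XTH31, EXPA3 and EXLB3), and 16 have no row in it and were not analysed. Positions count from 1 and follow the authors' tables. Alternatives varied the pseudocount, the expression minimum, the scaling, the variance trend, a replicate block and the libraries included.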

Additional observations from a re-analysis of the deposited data

How the results depend on the processing

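No called member changed sign in any alternative. Leaving out each library in turn gave 9 to 14 called members (9 without wild-type replicate 1), 4 to 8 rises (4 without wild-type replicate 2), 4 to 6 falls (4 without wild-type replicate 1 or dcl1 replicate 3), 3 to 5 expansins (3 without wild-type replicate 1 or 2), 6 to 9 XTH genes and 21 to 41 genes of the other wall lists (23, 21 and 26 without wild-type replicates 1 and 2 and dcl1 replicate 3). With a pseudocount of 5 FPKM, 5 members passed at 2-fold. Of the peaks assigned to members, 1 had an FDR of at most 0.05 and 0 overlapped the member. With the replicate block, 15 members were called, XTH24 being the addition (adjusted p 0.0215), and no called member was lost. Samples did not all correlate best with their own number. The summed XTH ratio ranged from 1.18 to 1.45 without single libraries. The log2 change of DCL1 was -3.04 and -0.88 with pseudocounts of 0.1 and 5 FPKM. With 5 FPKM, XTH19, EXLA3 and XTH15 were at 1.07, 0.61 and -0.37. Of DCL1 and the called members, XTH17, XTH15, EXLA3 and DCL1 gave no value with a minimum of 5 FPKM.

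Calls were lost for EXPA10 (highest adjusted p 0.128, without wild-type replicate 2), XTH9 (0.0911), EXPA4 (0.0901), EXPA8 (0.0809), XTH15 (0.0625) and EXPA15 (0.0543). XTH16 and XTH5 passed without dcl1 replicate 2 (0.0421 and 0.0282). Depth is unknown, so no limit can be given for members listed at 0.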
